A study of Homo sapiens with 3 samples.

Results

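The genes described here carry glucose into the cell, through glycolysis to pyruvate and lactate, and out again, in DU145, a human prostate carcinoma line. They were the 32 named genes of glucose uptake, the hexokinases, the glycolytic enzymes and their regulators, lactate formation and export, and the pyruvate dehydrogenase kinases, out of 23379 genes with a value. Of the 32, 31 were matched by Ensembl ID, and HK3, the hexokinase best known from blood cells, counted as 0. A mean of at least 1 FPKM (reads scaled by gene length and by all counted reads) over the 3 libraries was reached by 21 of them and missed by 10 more. There was 1 library in each of 3 groups. They were DU145 cells transfected with plasmids for the BRAF mutant L597R (L597R), DU145 cells with wild-type BRAF overexpressed (WT) and a negative control, P-Enter. The labels do not give the time after transfection, the promoter of the plasmids, what P-Enter carried or whether lines were cloned.

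With 1 library per group no difference has a replicate check and no p-value is given. The libraries held 16603676 counted reads in L597R, 15665132 in WT and 13294004 in P-Enter, and whole reads could be worked out from the FPKM values. Intervals in brackets are exact 95% intervals of a read ratio or of a count. They hold counting error alone, so they set one library against another. BRAF itself was at 9.59 FPKM in L597R, 4.41 in WT and 1.65 in P-Enter, so both BRAF libraries carried more BRAF mRNA than the control. Of 6 markers of epithelium and of this line, VIM (127 to 132 FPKM) and KRT18 (34.3 to 37.6) were expressed. KRT8 stayed at 0.534 to 0.623 FPKM, KRT19 below the filter, CDH1 at 1 read in P-Enter and 0 reads elsewhere, and EPCAM without a value, so the identity of the cells rests on their label. None of the 14 fibroblast, blood or endothelial markers reached the filter.

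Glycolysis splits glucose into pyruvate in the cytosol. Hexokinases trap glucose as glucose 6-phosphate, phosphofructokinase makes the committed step, and pyruvate kinase closes the pathway. Cancer cells often send much of the pyruvate to lactate through lactate dehydrogenase A and export it through monocarboxylate transporters. Several of these genes are known targets of the hypoxia-inducible factor HIF-1, which binds the core letters ACGTG or GCGTG, and of MYC, which binds CACGTG.

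The promoters of LDHA, PGK1 and HKDC1 are printed as examples. LDHA and PGK1 lay lower against P-Enter in L597R and WT than the fit on GC content, length and level placed them. So did other members that are not printed, among them PFKM (-0.25 and -0.16 from the fit), PFKFB4 and HK2. HKDC1, which was not in that fit, had more reads in both than in P-Enter. Each window runs 5′ to 3′ on the plus strand, from 250 bases before to 50 bases after a RefSeq start on GRCh38.p14. Capitals mark ACGTG or GCGTG read on either strand. The windows are chr11:18394313-18394612 (LDHA, the one of its 2 windows that holds ACGTG), chrX:78103998-78104297 (PGK1) and chr10:69220082-69220381 (HKDC1).
LDHA: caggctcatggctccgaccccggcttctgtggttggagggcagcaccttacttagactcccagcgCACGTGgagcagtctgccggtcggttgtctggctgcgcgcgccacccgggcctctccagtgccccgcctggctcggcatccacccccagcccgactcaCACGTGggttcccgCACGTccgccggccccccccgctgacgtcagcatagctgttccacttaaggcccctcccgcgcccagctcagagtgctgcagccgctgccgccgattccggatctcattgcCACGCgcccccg
PGK1: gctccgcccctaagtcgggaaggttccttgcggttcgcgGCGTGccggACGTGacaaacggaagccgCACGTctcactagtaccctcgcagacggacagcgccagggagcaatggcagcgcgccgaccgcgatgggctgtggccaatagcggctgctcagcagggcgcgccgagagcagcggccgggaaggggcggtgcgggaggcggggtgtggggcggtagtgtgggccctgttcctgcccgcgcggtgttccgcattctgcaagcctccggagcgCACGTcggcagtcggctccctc
HKDC1: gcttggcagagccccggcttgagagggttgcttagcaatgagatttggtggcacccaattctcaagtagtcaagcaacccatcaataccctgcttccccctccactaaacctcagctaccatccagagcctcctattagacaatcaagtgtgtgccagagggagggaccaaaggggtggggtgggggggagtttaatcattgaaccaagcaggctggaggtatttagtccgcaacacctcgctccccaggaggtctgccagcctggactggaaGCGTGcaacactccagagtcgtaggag
LDHA held ACGTG 5 times, counting both strands, with CACGTG (which contains ACGTG on both strands) beginning 185 and 87 bases before the start. PGK1 held it 3 times and HKDC1 0 times, HKDC1 having 1 GCGTG. RefSeq gave windows for 29 of the 32 genes, and SLC2A3, PFKFB2 and SLC16A1 were not matched. ACGTG stood in at least 1 window of 16 of the 29 genes (55.2%), against 24.9% of all 27305 genes with a window, and in 20 of their 59 windows (33.9%) against 21.4% of 35116. GCGTG stood in 19 of the 29 (65.5%), against 40.6% of all genes, and CACGTG, which overlaps the first motif, in 7 (24.1%), against 8.77%. By window the shares were closer. GCGTG stood in 23 of the 59 (39.0%) against 36.5% of all windows, and CACGTG in 7 (11.9%) against 7.26%. These are letter matches only, and genes with several windows have more chances of one.

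Summed over the 32 genes, the set took a slightly smaller part of the counted reads in both BRAF libraries. The 32 genes made up 1.60% of counted reads in L597R (1.596 to 1.608), 1.72% in WT (1.717 to 1.729) and 1.765% in P-Enter (1.758 to 1.772), so L597R was lowest and P-Enter highest. GAPDH, ENO1, PKM and TPI1 held 77.7% of these reads in L597R, 78.2% in WT and 77.9% in P-Enter. The share thus describes mostly these genes, and values of GAPDH, ENO1 and TPI1 after a fit on GC content are given below. Levels ran from 0 reads (PDK4 and PFKFB1 in WT) to 1553 FPKM (GAPDH in P-Enter), as the plot of levels by gene shows. GAPDH ranked 9 and ENO1 ranked 22 of 23379 genes by mean FPKM, while ALDOA, the main muscle-type aldolase, ranked 13675.

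**Figure D1:**
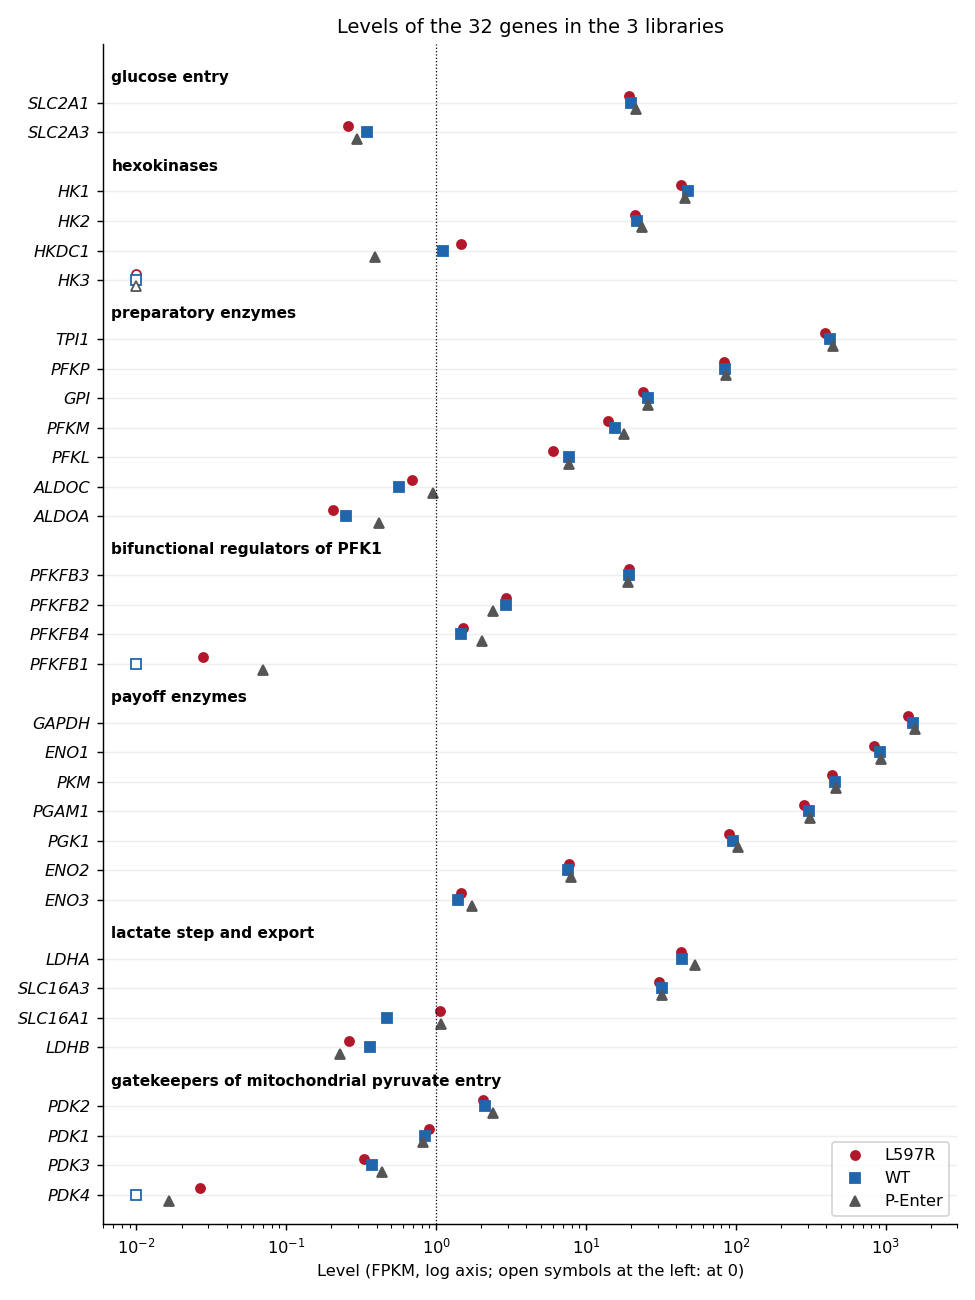
FPKM of each gene on a log axis in L597R (circles), WT (squares) and P-Enter (triangles), grouped by role; open symbols at the left edge are values at 0 and the dotted line marks 1 FPKM. The symbols of most genes above 1 FPKM nearly coincide, while HKDC1 (1.47, 1.10 and 0.392 FPKM) and SLC16A1 (1.06, 0.473 and 1.08 FPKM) are spread out.

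Nearly all glucose transporter mRNA among the members was SLC2A1. SLC2A1, the transporter GLUT1, was at 19.4 FPKM in L597R, 19.97 in WT and 21.4 in P-Enter. Both BRAF libraries were a little below P-Enter, at read ratios of 0.909 in L597R (0.854 to 0.968) and 0.935 in WT (0.878 to 0.996). SLC2A3, the high-affinity GLUT3, stayed at 0.258, 0.347 and 0.297 FPKM in L597R, WT and P-Enter (26, 33 and 24 reads).

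Among the hexokinases, HK1 and HK2 held nearly all of the summed FPKM, and HKDC1 differed most between libraries. HK1, the housekeeping enzyme bound to mitochondria, was at 43.3 FPKM in L597R, 47.8 in WT and 45.9 in P-Enter. Its read ratio was 0.905 (0.869 to 0.943) for L597R against WT, while for WT against P-Enter the interval held 1 (1.04, 0.996 to 1.09). HK2, the inducible form of many tumours, was at 21.2, 21.8 and 23.4 FPKM in that order, with ratios of 0.904 (0.848 to 0.963) for L597R and 0.929 (0.871 to 0.990) for WT, each against P-Enter. HK1 made up 65.6% of hexokinase FPKM in L597R, 67.6% in WT and 65.8% in P-Enter, and HK2 32.1%, 30.8% and 33.6%. HK1 thus led the hexokinases in every library.

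HKDC1, a hexokinase-like enzyme encoded beside HK1, was more abundant in both BRAF libraries. It had 103 reads in L597R, 73 in WT and 22 in P-Enter, and 1.47, 1.10 and 0.392 FPKM in that order. In CPM, reads scaled to a common library total, that was 6.20 (5.06 to 7.52) in L597R, 4.66 (3.65 to 5.86) in WT and 1.65 (1.04 to 2.51) in P-Enter. The intervals of L597R and WT overlapped each other and neither reached that of P-Enter. L597R had 3.75 times the scaled reads of P-Enter (2.35 to 6.24) and WT 2.82 times (1.73 to 4.76), while L597R over WT was 1.33 (0.977 to 1.82). Its mean of 0.988 FPKM lay just under the filter, so it stood outside every count below, and it was picked out after its values were seen. On chromosome 10 of GRCh38 (GENCODE 29, plus strand) HKDC1 spans bases 69220303 to 69267559 and HK1 69269984 to 69401884. HKDC1 made up 2.23% of hexokinase FPKM in L597R, 1.56% in WT and 0.562% in P-Enter.

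**Figure D2:**
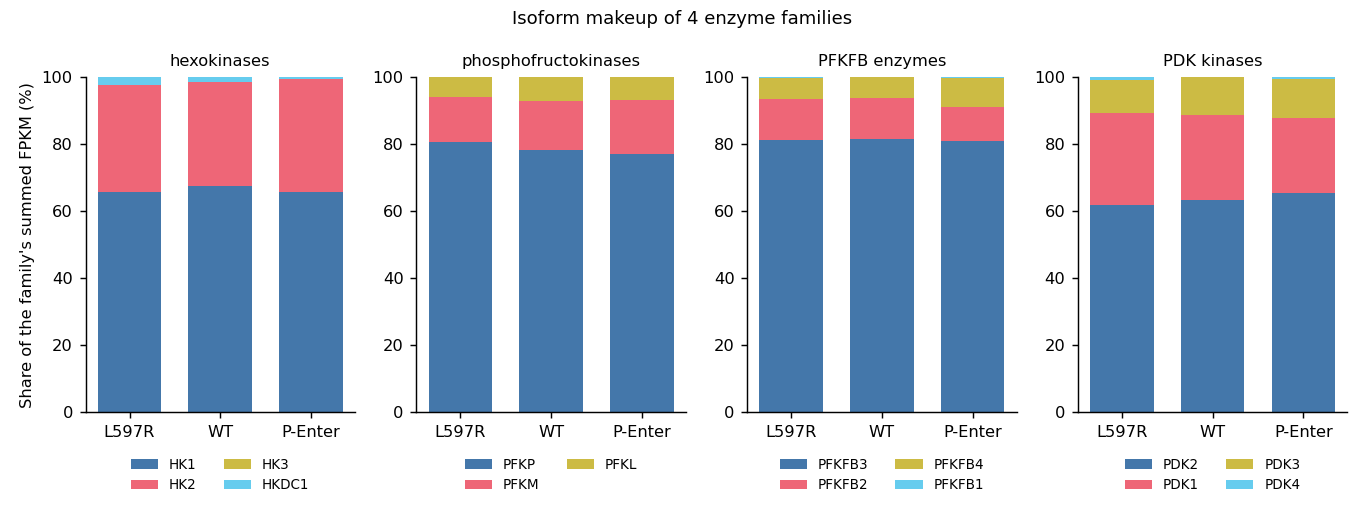
Share of the summed FPKM of 4 enzyme families held by each isoform in L597R, WT and P-Enter; each bar adds up to the whole family. PFKP holds 80.6%, 78.3% and 77.0% of phosphofructokinase in L597R, WT and P-Enter, and HKDC1 is the thin top band of the hexokinases.

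In the preparatory phase TPI1 and PFKP were the abundant enzymes, and among the 5 genes above the filter PFKM and PFKL had the largest differences from P-Enter in L597R. TPI1, triose-phosphate isomerase, was at 392 FPKM in L597R, 422 in WT and 446 in P-Enter. GPI, which turns glucose 6-phosphate into fructose 6-phosphate, was at 24.1, 26.1 and 25.9 FPKM in L597R, WT and P-Enter. PFKP, the platelet-type phosphofructokinase, was at 83.2, 83.9 and 85.1 FPKM in that order, and all 3 of its read-ratio intervals held 1.

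PFKM, the muscle-type subunit, was at 14.0 FPKM in L597R, 15.6 in WT and 17.8 in P-Enter. L597R was lowest and P-Enter highest, with ratios to P-Enter of 0.788 in L597R (0.736 to 0.843) and 0.876 in WT (0.819 to 0.937), and of 0.899 between L597R and WT (0.841 to 0.962). PFKL, the liver-type subunit, was at 6.04 FPKM in L597R, 7.70 in WT and 7.64 in P-Enter. L597R stood apart for PFKL, with ratios of 0.790 (0.720 to 0.867) against P-Enter and 0.784 (0.717 to 0.858) against WT, while WT and P-Enter did not separate (1.01, 0.922 to 1.10). PFKM made up 13.6% of phosphofructokinase FPKM in L597R, 14.5% in WT and 16.1% in P-Enter, and PFKL 5.85%, 7.19% and 6.92%.

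Aldolase was the step with hardly any reads. ALDOA had 13 reads in L597R, 15 in WT and 21 in P-Enter (0.204, 0.250 and 0.413 FPKM), and ALDOC, the brain-type enzyme, had 30, 23 and 33 (0.692, 0.562 and 0.9504 FPKM). The read-ratio intervals of both genes held 1 in all comparisons. The enzymes just after it, TPI1 and GAPDH, were at 392 FPKM or more in each library, so the ALDOA value is uncertain. In GENCODE 29, 42.3% of its exon bases also lie in exons of AC093512.2, a protein-coding gene on the same strand, which was at 1.252 FPKM in L597R, 1.578 in WT and 1.61 in P-Enter. Whether that overlap has a part in the low value was not tested.

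The bifunctional PFKFB enzymes make and break fructose 2,6-bisphosphate, the activator of phosphofructokinase. PFKFB3, the form with the strongest kinase activity, was at 19.4 FPKM in L597R, 19.3 in WT and 18.9 in P-Enter, and its intervals all held 1. PFKFB2 was at 2.92, 2.90 and 2.39 FPKM in that order, higher in L597R (read ratio 1.22, 1.06 to 1.41) and in WT (1.22, 1.05 to 1.41) than in P-Enter. PFKFB4 was at 1.52, 1.47 and 2.01 FPKM, lower in L597R (0.756, 0.603 to 0.949) and in WT (0.734, 0.582 to 0.925) than in P-Enter. L597R and WT did not separate for either gene, and both comparisons share the P-Enter library. PFKFB1, the liver form, had 1, 0 and 2 reads in L597R, WT and P-Enter.

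GAPDH, ENO1 and PKM were among the most abundant enzymes and lay slightly lower in L597R than in WT and P-Enter. GAPDH, which makes the first NADH of the pathway, was at 1397 FPKM in L597R, 1524 in WT and 1553 in P-Enter. ENO1, the main enolase, was at 828, 914 and 924 FPKM in that order. PKM, pyruvate kinase, was at 434 FPKM in L597R, 457 in WT and 467 in P-Enter, and values per gene do not separate its M1 and M2 splice forms. The read ratios for L597R against P-Enter were 0.900 (0.889 to 0.910) for GAPDH, 0.897 (0.887 to 0.906) for ENO1 and 0.930 (0.919 to 0.941) for PKM. PGAM1, phosphoglycerate mutase, was at 284 FPKM in L597R, 305 in WT and 311 in P-Enter. The neuronal ENO2 (7.64, 7.53 and 7.87 FPKM) and the muscle ENO3 (1.47, 1.40 and 1.74 FPKM) had intervals that held 1 in all comparisons.

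PGK1, phosphoglycerate kinase, which makes the first ATP of the pathway, was at 89.1 FPKM in L597R, 95.4 in WT and 103 in P-Enter. Relative to P-Enter it stood at 0.868 in L597R (0.841 to 0.896) and 0.929 in WT (0.901 to 0.959), and L597R stood at 0.934 of WT (0.905 to 0.963), the order seen for PFKM. At 43.3% GC it was the member above the filter with the lowest GC content.

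At the lactate step LDHA was lower in both BRAF libraries. LDHA, which turns pyruvate into lactate, was at 43.0 FPKM in L597R, 43.3 in WT and 53.3 in P-Enter. L597R and WT did not separate (read ratio 0.991, 0.9496 to 1.03) and both lay below P-Enter, with ratios of 0.806 in L597R (0.773 to 0.841) and 0.813 in WT (0.779 to 0.849). Its differences of -0.30 and -0.29 in log2(FPKM + 1) stood just short of the smaller size rule given below. The gene spans bases 18394388 to 18408425 of chromosome 11, plus strand, and 12, 7 and 4 reads were counted to its pseudogenes in L597R, WT and P-Enter.

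LDHB, the heart-type subunit that favours lactate oxidation, was almost unread, with 13 reads in L597R, 17 in WT and 9 in P-Enter (0.262, 0.364 and 0.227 FPKM). LDHA thus held 99.4%, 99.2% and 99.6% of lactate dehydrogenase FPKM in L597R, WT and P-Enter. Of the LDHB exon bases 33.4% lie in exons of a further protein-coding gene on the same strand, AC010197.2, which had no value in any library. Whether this overlap has a part in the low LDHB value was not tested.

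SLC16A3 was the abundant lactate transporter mRNA. SLC16A3, the exporter MCT4, was at 30.5 FPKM in L597R, 31.8 in WT and 32.1 in P-Enter. SLC16A1, the two-way transporter MCT1, had 112 reads in L597R, 47 in WT and 91 in P-Enter, or 1.06, 0.473 and 1.08 FPKM. WT alone was low for SLC16A1, with a read ratio of 0.438 (0.301 to 0.630) against P-Enter, while L597R was 2.25 (1.59 to 3.23) times WT and not separable from P-Enter (0.985, 0.741 to 1.31). SLC16A1 spans bases 112911847 to 112957013 of chromosome 1, minus strand, and its mean of 0.871 FPKM kept it out of the counts below. BSG, the chaperone that brings both transporters to the membrane, was at 180, 184 and 187 FPKM in L597R, WT and P-Enter.

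**Figure D3:**
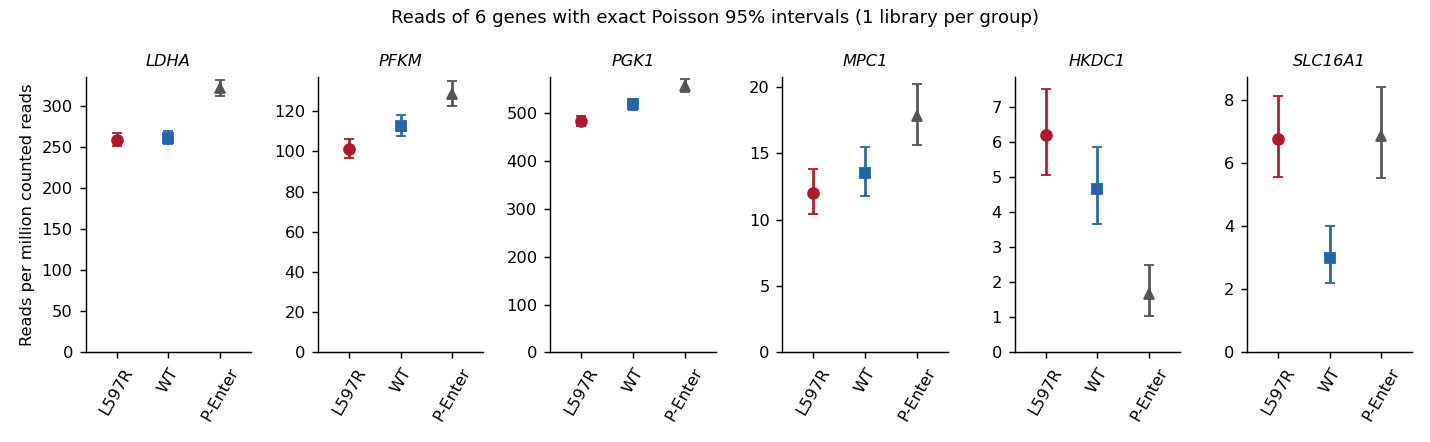
Reads scaled to the library total (CPM) of LDHA, PFKM, PGK1, MPC1, HKDC1 and SLC16A1 in L597R, WT and P-Enter, each axis starting at 0; bars are exact Poisson 95% intervals of 1 library and hold counting error only. P-Enter stands apart from both other libraries, highest for LDHA (43.0, 43.3 and 53.3 FPKM), PFKM, PGK1 and MPC1 and lowest for HKDC1. SLC16A1 sets WT apart (0.473 FPKM).

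The pyruvate dehydrogenase kinases, which switch off the entry of pyruvate into the mitochondrial cycle, were scarce. PDK2 led with 2.05 FPKM in L597R, 2.11 in WT and 2.39 in P-Enter. PDK1, the hypoxia-induced form, was at 0.901, 0.843 and 0.821 FPKM in that order, and PDK3 at 0.330, 0.373 and 0.434. PDK4, the starvation-induced form, had 2 reads in L597R, 0 in WT and 1 in P-Enter. The intervals of all 4 kinases held 1 in all 3 comparisons, so no difference could be made out at this depth.

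No gene of the set passed the larger size rule, a difference of at least 1 in log2(FPKM + 1) with a mean of at least 1 FPKM. That was 0 of 21 in L597R against P-Enter, where 0.808% of all 10639 genes above the filter passed. It was 0 of 21 in WT against P-Enter (0.978% of all genes) and 0 of 21 in L597R against WT (0.724%). Under the smaller rule, a difference of at least 0.32 on the same scale, PFKM alone was lower in L597R than in P-Enter and 0 genes were higher, against 5.18% of all genes lower and 11.8% higher. In WT against P-Enter 0 were lower and 0 higher (3.58% and 2.95% of all genes). In L597R against WT 0 were lower and 0 higher (3.16% and 4.93%). PFKM passed narrowly, at -0.32, with LDHA (-0.30) and PFKL (-0.30) just outside, and it no longer passed with a pseudocount of 5 or after rescaling by the median ratio. Fold changes on this scale understate those of low genes.

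Small differences in one direction were common. Of the 21 genes, 19 lay below P-Enter in L597R (51.4% of all genes did), 16 below P-Enter in WT (50.2%) and 16 below WT in L597R (47.8%). The median difference of the 21 was -0.14 in L597R and -0.03 in WT against P-Enter, and -0.06 in L597R against WT, with medians over all genes of -0.01, 0.00 and 0.01. The 95% interval of the read ratio lay below 1 for 15 and above 1 for 1 of the 21 in L597R against P-Enter, where 23.9% of all genes lay below and 25.5% above. The counts were 10 below and 1 above in WT against P-Enter (12.1% and 14.0% of all genes). They were 11 below and 0 above in L597R against WT (16.3% and 22.1%). Deep genes give narrow intervals. Among genes with at least 1000 reads over the 3 libraries, the interval lay below 1 for 14 of 18 members in L597R against P-Enter, with 29.3% of 7040 genes. It did so for 9 of 18 in WT against P-Enter (13.6%) and for 11 of 18 in L597R against WT (20.4%). The first 2 comparisons share P-Enter and are not independent of each other.

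**Figure D4:**
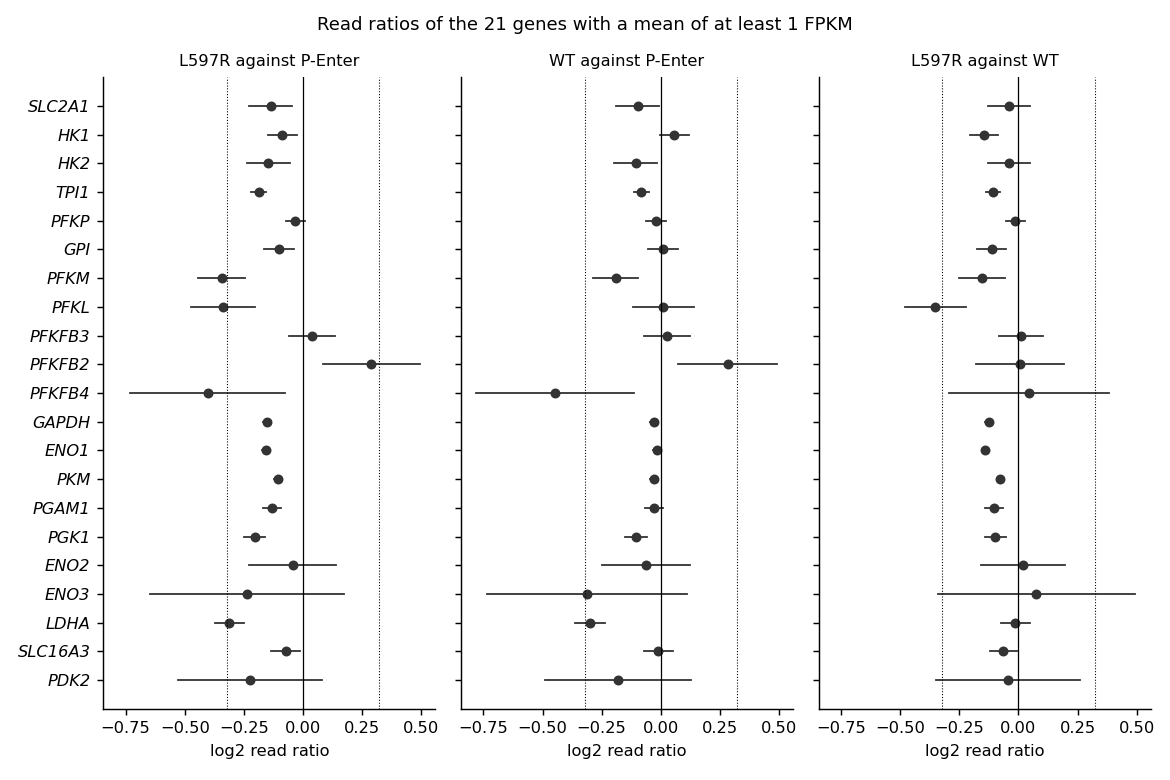
log2 read ratios of the 21 genes with a mean of at least 1 FPKM, for L597R against P-Enter, WT against P-Enter and L597R against WT; bars are exact 95% intervals for counting error, the solid line is no difference and the dotted lines are 0.32 from it. In the first panel 15 of the 21 intervals lie left of the solid line and that of PFKFB2 (ratio 1.22) lies right of it.

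The differences moved with GC content. Across 9358 protein-coding genes the Spearman correlation of GC content with the difference was -0.69 in L597R against P-Enter, -0.45 in WT against P-Enter and -0.59 in L597R against WT, as a description of genes that share these libraries. The 21 genes had a median GC content of 54.8%, against 47.4% over all, and 18 of the 21 lay above that median. After a regression on GC content, length and mean FPKM, 10 of the 21 lay below P-Enter in L597R (50.3% of all genes), 10 below P-Enter in WT (49.2%) and 9 below WT in L597R (49.7%). The median of the 21 was then 0.00 in L597R and 0.00 in WT against P-Enter, and 0.01 in L597R against WT. In L597R against P-Enter GAPDH was at 0.03 after the regression (-0.15 before), ENO1 at -0.02 (-0.16 before) and TPI1 at 0.00 (-0.19 before). The shift of the set below 0 was present in the deposited values and absent after the regression. With 1 library a group, a GC effect of library preparation and one of the cells cannot be told apart.

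Against P-Enter, LDHA, PGK1, PFKM, PFKFB4 and HK2 lay below 0 in both BRAF libraries before and after the regression. SLC2A1 (-0.01 in L597R and -0.04 in WT) and TPI1 (-0.003 and -0.01) kept the sign but lay near 0 after it. For LDHA the adjusted difference was -0.38 in L597R and -0.32 in WT, each against P-Enter, further from 0 than the deposited -0.30 and -0.29, and in WT only just past 0.32. It was the only one of the 21 past 0.32 after the regression, lower in both, where 2.28% of all genes were lower in L597R and 1.20% in WT. On the higher side 0 of the 21 passed, with 2.34% of all genes in L597R and 1.08% in WT. In L597R against WT 0 passed either way, with 1.26% of all genes lower and 1.40% higher. PGK1 was at -0.28 in L597R and -0.13 in WT, and PFKM at -0.25 in L597R and -0.16 in WT. PFKFB4 was at -0.09 in L597R and -0.21 in WT, and HK2 at -0.07 and -0.08. PFKL was at -0.17 in L597R against P-Enter and -0.22 against WT. PFKFB2, alone of the 21 in having a read interval above 1, was at 0.12 in L597R and 0.17 in WT against P-Enter.

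**Figure D5:**
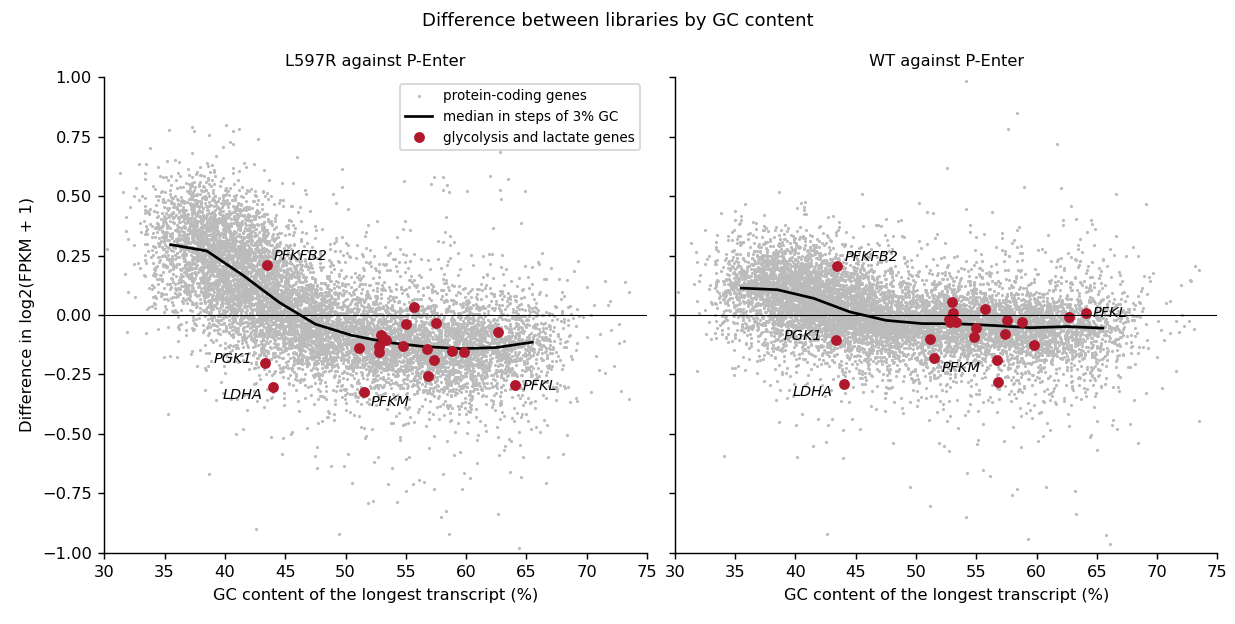
Difference in log2(FPKM + 1) against GC content for 9358 protein-coding genes (grey; points beyond 1 in either direction are not drawn) and the 21 genes (red) in L597R against P-Enter and WT against P-Enter; the line is the median in steps of GC content. Most of the 21 follow the line at high GC, whereas LDHA (-0.30 and -0.29), PGK1 (-0.20 and -0.10) and PFKM (-0.32 and -0.18) lie below it in both panels.

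Other genes of glucose metabolism were taken from 11 lists with 123 distinct genes, of which 88 passed the filter. In L597R against P-Enter 11 of the 88 were higher and 1 lower by the 0.32 rule, beside 11.8% and 5.18% of all genes. In WT against P-Enter it was 1 higher and 1 lower (2.95% and 3.58% of all genes), and in L597R against WT 2 higher and 3 lower (4.93% and 3.16%). These counts are near or below the shares of all genes. The 11 higher genes had GC contents of 33.3 to 44.1%, and after the regression MINPP1 alone of them was still past 0.32.

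At the mitochondrial door, MPC1, a subunit of the mitochondrial pyruvate carrier, was at 7.79 FPKM in L597R, 8.75 in WT and 11.5 in P-Enter. It was lowest in L597R and its scaled reads were 0.676 of P-Enter (0.557 to 0.819) for L597R and 0.759 (0.628 to 0.918) for WT. Like LDHA it lay below the GC trend, with adjusted differences of -0.61 in L597R and -0.38 in WT. Its partner MPC2 was at 13.1, 12.3 and 12.5 FPKM in L597R, WT and P-Enter. Of the 6 genes of the lactate and pyruvate list above the filter, 2 were higher and 1 (MPC1) lower in L597R than in P-Enter by the rule. Of all genes 11.8% were higher and 5.18% lower. The 2 higher genes lay near the GC trend, with adjusted differences of -0.03 for SLC16A7 and 0.08 for EMB. SLC16A7, the pyruvate transporter MCT2, was at 6.07 FPKM in L597R, 5.22 in WT and 4.37 in P-Enter. EMB, an ancillary protein of such transporters, was at 25.6, 23.3 and 19.7 FPKM in that order.

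In each list the count higher in L597R than in P-Enter stands beside the 11.8% of all genes that were, and counts of 1 or 2 do not set a list apart. In the pyruvate dehydrogenase list 1 of 8 was higher and 0 lower. This was PDP1, the phosphatase that reverses the PDK kinases, at 9.05 FPKM in L597R, 8.35 in WT and 6.74 in P-Enter (read ratios 1.34, 1.201 to 1.503, in L597R and 1.24, 1.105 to 1.391, in WT). Among 12 glycogen genes 2 were higher in L597R than in P-Enter and 0 lower, again beside 11.8% of all genes higher. PGM2, a phosphoglucomutase, was one of them, at 23.9 FPKM in L597R, 19.98 in WT and 18.2 in P-Enter. Among 4 other glycolysis enzymes MINPP1, an inositol polyphosphate phosphatase that can also act on bisphosphoglycerate, was at 15.1 FPKM in L597R, 10.9 in WT and 11.1 in P-Enter.

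Among 5 serine synthesis genes SHMT1, the cytosolic serine hydroxymethyltransferase, was highest in WT, at 2.91 FPKM in L597R, 4.54 in WT and 2.61 in P-Enter. WT had 1.74 times the scaled reads of P-Enter (1.49 to 2.03), and L597R 0.641 times those of WT (0.558 to 0.735). Of 17 genes of the tricarboxylic acid cycle 0 passed against P-Enter. Of all genes 11.8% were higher and 5.18% lower in L597R, and 2.95% and 3.58% in WT. IDH2 was lower in L597R than in WT at 4.52 against 6.14 FPKM, beside 3.16% of all genes lower and 4.93% higher. Of the 7 pentose phosphate genes and the 3 further glucose transporters 0 passed in any comparison. In lists this small, counts of 0 or 1 beside these shares do not set a list apart.

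Among the regulators HIF1A was higher in L597R than in P-Enter. LDHA and PGK1, known targets of its protein, were lower, but they were picked from the members and do not stand for them all. In the same comparison SLC2A1 was at -0.13 (-0.01 after the regression), PFKFB3 at 0.04 (0.16 after it) and PDK1, under the filter, at 0.06. Most of the 12 targets outside glycolysis lay above 0. Whether HIF1A mRNA has a part in any of these values was not tested. HIF1A, the oxygen-regulated subunit of HIF-1, was at 38.1 FPKM in L597R, 31.7 in WT and 26.7 in P-Enter, with a read ratio of 1.43 (1.35 to 1.51) for L597R against P-Enter. At 36.4% GC its adjusted difference was 0.20, against 0.50 before. EGLN1, a prolyl hydroxylase that marks HIF-1 for degradation, was at 1.16, 1.12 and 0.727 FPKM in L597R, WT and P-Enter. It was the other of 6 regulators past the rule, but it reached the filter only through L597R and WT, so its call has no weight. Of 12 HIF targets outside glycolysis 2 were higher and 0 lower in L597R than in P-Enter, beside 11.8% of all genes higher. They were P4HA1, a collagen prolyl hydroxylase, at 14.7 against 11.02 FPKM and LOX, a collagen crosslinking enzyme, at 12.3 against 9.53. By sign, 8 of the 12 lay above 0 and 4 below, and after the regression 10 lay above and 2 below. Over all genes 51.4% lay below 0 before it and 50.3% after it. The read interval lay above 1 for 6 of the 12 and below 1 for 1 (25.5% and 23.9% of all genes). Among 8 further regulators PRKAA1, a catalytic subunit of AMP-activated kinase, was higher in L597R at 27.4 against 20.9 FPKM in P-Enter (GC-adjusted difference 0.03). MYC was at 31.2 FPKM in L597R, 31.0 in WT and 34.5 in P-Enter.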

How the data were processed

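RNA was sequenced from 3 libraries, prepared with a stranded mRNA kit from Trizol RNA per the labels' protocols. The submitters' processing notes name HISAT2, HTSeq, Cufflinks and Trimmomatic, with hg38/GRCh38 as the build; versions, the strand setting and the annotation release are not given in the sources used here, so antisense, overlapping and near-identical genes are uncertain. Per the file headers, the deposited unit is FPKM for each Ensembl gene. From there, library totals and whole reads were solved from the FPKM values (tolerance 1e-05 reads, 99.99% of genes). The solved reads summed to 100.8% of the solved total in each library. The solved length equalled the annotated exon length for 48.6% of genes and lay within 10% of it for 87.3%. Read counts and their intervals are thus solved values, not counts given by the submitters. Low genes without an annotated length are less certain. Reads are not independent molecules, so intervals hold counting error alone.

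Differences were taken in log2(FPKM + 1) with a mean of at least 1 FPKM and sizes of 1 and 0.32 in place of a test. Read ratios have exact Clopper-Pearson intervals given the summed reads of a pair, and levels have exact Poisson intervals. GC content, exon lengths and positions came from GENCODE 29, and symbols from a gene name table. A regression with cubic terms in GC content, log length and log mean FPKM was fitted to 9358 protein-coding genes. The genes and lists were chosen with earlier results of these data known. Values are given for the leading gene of each role, members past 0.32, chosen rate-setting isoforms, low members by range, and up to 4 genes past 0.32 per list, some of which are not reported here; other members were added after their values were seen. Simulated reads were used to test the recovery of reads, with gene lengths given, and the larger size rule, with changes beyond that rule. The 0.32 rule, the intervals and the regression were not tested in that way. Alternatives were other pseudocounts, filters, rescalings, the regression and recovered reads. Work was done in Python 3.11.15 with scipy 1.17.1, numpy 2.4.6, matplotlib 3.10.9 and pandas 2.3.3.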

Additional observations from a re-analysis of the deposited data

How the results depend on the processing

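The count of 0 genes past 1 in log2(FPKM + 1) held in all 3 comparisons under all 8 alternatives, each run alone. HKDC1 and SLC16A1, under the filter, passed 1 at other settings: with a pseudocount of 0.1 HKDC1 was at 1.67 in L597R and 1.29 in WT against P-Enter, and SLC16A1 at -1.04 in WT against P-Enter and 1.02 in L597R against WT. No filter together with that pseudocount was not run. The counts past 0.32 were small and moved. In L597R against P-Enter the 1 gene became 3 with a pseudocount of 0.1 and with recovered reads (PFKL, PFKM and PFKFB4), 2 with no filter (HKDC1 and PFKM), 2 with upper-quartile rescaling (PFKM and LDHA), 0 with a pseudocount of 5 and 0 with rescaling by the median ratio. In WT against P-Enter 0 became 1 with a pseudocount of 0.1 and with recovered reads (PFKFB4), 2 with no filter (HKDC1 and SLC16A1) and 1 after the GC regression (LDHA). In L597R against WT 0 became 1 with a pseudocount of 0.1 and with recovered reads (PFKL) and 1 with no filter (SLC16A1). The number of genes below 0 went to 10 in L597R against P-Enter, 10 in WT against P-Enter and 9 in L597R against WT after the GC regression. The regression takes away what moves with GC content by its construction; for the others the cause was not tested. Of 351 alternative values of single genes, 317 moved by less than counting error and 34 by more. A change of sign was looked for only in genes past a size rule, which left PFKM in L597R against P-Enter alone, and its sign held. Smaller differences could change sign after the regression. In L597R against P-Enter GAPDH went from -0.15 to 0.03 and PFKP from -0.03 to 0.13. These checks of single genes and of the number below 0 were added after the values were seen. No paired analysis was possible because each group had 1 library, and for the same reason no library could be left out. For genes with few reads, such as ALDOA, LDHB, PDK4 and PFKFB1, all intervals held 1, and small differences are not detectable at this depth.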

Other observations

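Genes next to the pathway gave a few values of their own. PGAM4, a retrotransposed copy of PGAM1, had 38 reads in L597R, 26 in WT and 13 in P-Enter (1.35, 0.982 and 0.579 FPKM). Its read ratio was 2.34 (1.22 to 4.79) for L597R against P-Enter, while PGAM1 itself had 0.912 (0.889 to 0.937); its mean lay under 1 FPKM, and reads of such near-identical copies cannot be assigned with certainty. TPI1 pseudogenes held 453 reads in L597R, 513 in WT and 416 in P-Enter, and GAPDH pseudogenes held 261, 277 and 263, from 7 of 62 annotated copies. TXNIP, the glucose-induced inhibitor of glucose uptake, had 0 reads in L597R, 1 in WT and 1 in P-Enter, whereas MLXIP, a transcription factor that drives it, was at 1.42, 1.37 and 1.46 FPKM.

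After the regression on GC content, DDIT4, an inhibitor of mTOR signalling induced by hypoxia and stress, joined the genes past 0.32 in L597R against P-Enter, with an adjusted difference of 0.46. It was at 4.72 FPKM in L597R, 4.10 in WT and 3.62 in P-Enter.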
